A study of Mus musculus with 12 samples.

Results

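The 10 marker genes below were followed across the 4 hypothalamic RNA pools of the study, chosen by name as markers of the habenula (Gpr151, Chrnb4, Chrna3, Nwd2 and Pou4f1) or of the thalamus (Lhx9, Ramp3, Tcf7l2, Prkcd and Rgs16). They are 10 of the 17186 genes that passed the signal filter, each was read by 1 probe set, and all 10 passed. The probe sets are, in the order above, 10458641, 10593767, 10593756, 10521995, 10422179, 10358272, 10374197, 10464084, 10418410 and 10350733. The genes were selected with their differences from the control pool known, so those differences are given as a description: calls made on them restate the choice of genes, and nothing rests on them.

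Male C57Bl/6J mice of 21 weeks were compared. CON mice drank plain water. ASP mice received aspartame in their drinking water, given in the labels as 46 mg/kg body weight, from before birth onwards through life. CGP mice were exposed to CGP 39551 (which competes with glutamate at the NMDA receptor), given to the dams at 5 mg/kg a day until the pups reached postnatal day 28, and ASP+CGP mice had both exposures. All mice were fasted overnight, and all 4 groups had been through behavioural testing. The RNA of a group was combined into 1 pool and hybridised to 3 arrays, so the 3 values of a pool are technical repeats, the spread between mice is not measured, and every p-value below refers to the spread between arrays alone. The smallest two-sided p that exact permutation allows for 3 arrays against 3 is 0.1, so tests rest on the fit over all genes.

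The habenula is a small paired nucleus that lies above the thalamus, dorsal to the hypothalamus. Its medial part sends axons to the interpeduncular nucleus and uses acetylcholine and glutamate, and it is known for its part in aversion and nicotine withdrawal. Nicotinic receptors built from α3 and β4 subunits are especially abundant there. The thalamus relays sensory and motor signals to the cortex through glutamatergic neurons. The tissue was labelled hypothalamus, and of 15 hypothalamic markers measured (such as the neuropeptide genes Avp, Oxt, Trh and Pmch) none had a pool mean under a log2 signal of 6, the floor of the filter. The 10 habenula and thalamus genes were also above that floor on all 12 arrays, so transcripts of these genes were measured in every pool of the labelled tissue. In bulk tissue, a difference in the number of cells of a type and a difference in RNA per cell (fewer cells or less RNA in each) cannot be told apart.

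Chrna3 and Chrnb4, which encode the α3 and β4 subunits, stand next to each other on chromosome 9 beside Chrna5, the gene of the accessory α5 subunit. The 250 bases before the transcription start are given for these 3 neighbours and for Nwd2 and Lhx9, which had the next largest differences in the CGP pool. Of the neighbours, Chrnb4 and Chrna3 were higher in the treated pools than in CON. Chrna5, whose signal lay close to the floor of the filter, was not. The sequences are from RefSeq (GRCm38.p6), which held a promoter for 9 of the 10 genes (not Gpr151), and 1 of the starts listed for Chrna5 is shown. Capitals mark a GC box, the letters of the Sp1 motif (GGGCGG), or a TCF/LEF motif (CTTTGAT), on either strand.
Chrnb4 (chr9:55048545-55048794, minus strand): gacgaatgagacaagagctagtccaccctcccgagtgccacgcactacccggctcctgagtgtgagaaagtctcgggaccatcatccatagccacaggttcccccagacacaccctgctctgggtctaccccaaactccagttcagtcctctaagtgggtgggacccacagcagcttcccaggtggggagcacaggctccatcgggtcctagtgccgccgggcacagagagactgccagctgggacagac
Chrna3 (chr9:55026563-55026812, minus strand): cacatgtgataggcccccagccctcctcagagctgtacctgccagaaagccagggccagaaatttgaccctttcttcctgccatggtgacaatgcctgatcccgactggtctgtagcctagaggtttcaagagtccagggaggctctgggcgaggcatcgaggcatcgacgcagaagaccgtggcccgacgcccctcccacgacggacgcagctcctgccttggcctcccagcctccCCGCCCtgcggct
Chrna5 (chr9:54980630-54980879, plus strand): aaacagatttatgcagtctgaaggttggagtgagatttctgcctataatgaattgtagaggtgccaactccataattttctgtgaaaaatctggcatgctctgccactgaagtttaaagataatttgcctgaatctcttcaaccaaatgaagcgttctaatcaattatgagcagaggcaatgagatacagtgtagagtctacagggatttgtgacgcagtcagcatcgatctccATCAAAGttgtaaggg
Nwd2 (chr5:63648853-63649102, plus strand): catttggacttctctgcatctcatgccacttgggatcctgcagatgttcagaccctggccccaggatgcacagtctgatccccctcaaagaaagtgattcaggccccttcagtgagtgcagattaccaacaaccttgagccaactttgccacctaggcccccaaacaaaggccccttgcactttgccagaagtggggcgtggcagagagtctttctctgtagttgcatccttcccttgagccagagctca
Lhx9 (chr1:138842445-138842694, minus strand): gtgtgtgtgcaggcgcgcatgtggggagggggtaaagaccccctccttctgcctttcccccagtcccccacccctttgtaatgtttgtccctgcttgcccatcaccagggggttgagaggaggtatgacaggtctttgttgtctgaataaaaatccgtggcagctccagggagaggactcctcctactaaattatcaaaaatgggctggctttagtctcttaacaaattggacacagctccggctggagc
Among 32851 promoter windows of this length, 32.7% held a GC box, 3.21% a TCF/LEF motif and 4.84% the homeodomain motif TAATTA. Of the 11 windows of the 9 marker genes, 6 held a GC box (in Chrna3, Pou4f1, Ramp3, Tcf7l2, Prkcd and Rgs16), and 0 held either of the other motifs. In the windows shown, Chrna3 has 1 GC box and Chrna5 has 1 TCF/LEF motif, and those of Chrnb4, Nwd2 and Lhx9 have no match. The other Chrna5 window, which is not shown, has 4 GC boxes and 0 TCF/LEF motifs, so the motifs of Chrna5 depend on the start taken.

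All 10 genes had their lowest mean signal in the CON pool. In CGP mice all 10 lay above CON, by 0.20 to 0.81 on the log2 scale with a median of 0.44, against a median of 0.01 over all genes. In ASP mice the median was 0.26 (range 0.03 to 0.53, all genes −0.01), and in ASP+CGP mice it was 0.38 (range 0.27 to 0.50, all genes −0.00). The 3 comparisons share the CON arrays, and their values are given side by side for that reason. For 8 of the 10 genes each of the 9 other arrays was above all 3 CON arrays, which was also true of 1.2% of all genes. The exceptions were Pou4f1 and Rgs16, whose ASP arrays overlapped CON. Taken pool by pool, the arrays were all above CON in 10 genes for CGP, 8 for ASP and 10 for ASP+CGP, a separation found in 12%, 9.93% and 7.15% of all genes. The order among the treated pools differed between genes: ASP had the lowest mean of the treated pools for 9 of the 10, the 5 habenula genes were highest in CGP, and of the 5 thalamus genes 3 were highest in ASP+CGP and 2 in CGP.

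**Figure D1:**
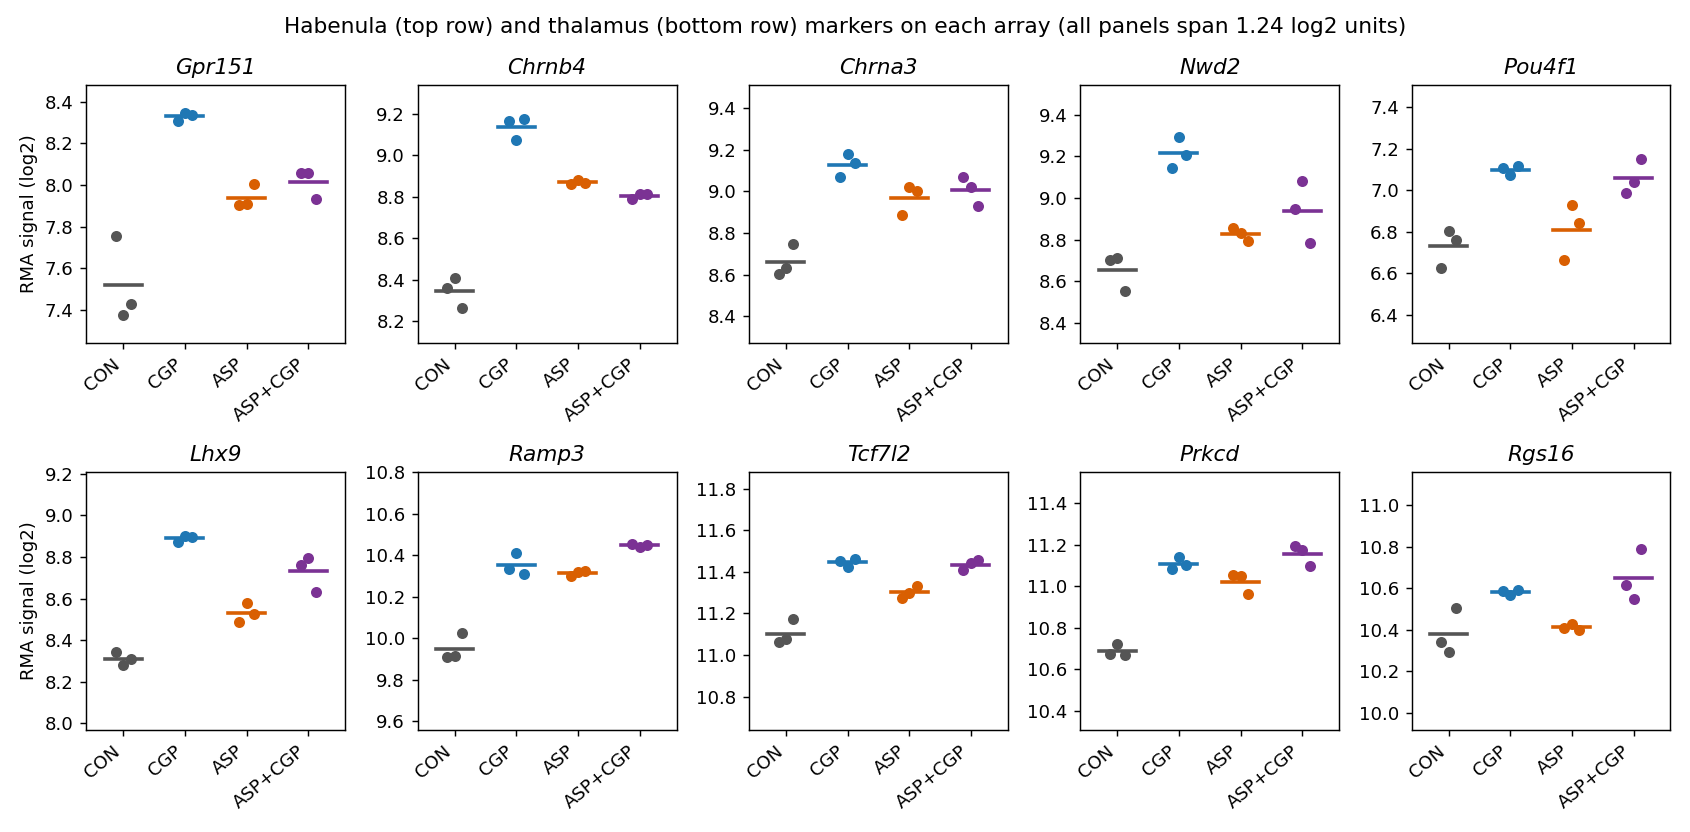
RMA signal (log2, vertical axis) of each marker gene on the 3 arrays of each pool (points) with the pool mean (bar), every panel spanning the same range. The CON arrays are the lowest in 8 of the 10 panels, and Gpr151 and Chrnb4 show CGP well above the other 2 treated pools. In Nwd2 the CGP arrays are also above both, with a narrow gap to the highest ASP+CGP array.

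Gpr151, an orphan G protein-coupled receptor carried on habenular axons, had the largest difference of the 10 in CGP. The CON arrays gave a log2 signal of 7.75, 7.38 and 7.43, those of CGP 8.31, 8.35 and 8.34, those of ASP 7.90, 7.91 and 8.0045, and those of ASP+CGP 8.06, 8.06 and 7.93. No treated array overlapped CON, the CGP arrays stood above all others, and ASP overlapped ASP+CGP. The CGP pool was 0.81 ± 0.08 (SE) above CON, a 1.76-fold difference and the 5th highest of all genes tested, whereas ASP was 0.42 ± 0.08 and ASP+CGP 0.50 ± 0.08 above it. The first CON array stood apart from the other two, and without it the 3 differences were 0.93, 0.54 and 0.61.

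The α3 and β4 nicotinic subunit genes were both higher. Chrnb4 gave 8.36, 8.41 and 8.26 in CON, 9.16, 9.07 and 9.17 in CGP, 8.86, 8.88 and 8.87 in ASP, and 8.79, 8.81 and 8.81 in ASP+CGP. Its 4 pools did not overlap at any point in the order CON, ASP+CGP, ASP, CGP. The differences from CON were 0.79 ± 0.05 in CGP (1.73-fold), 0.53 ± 0.05 in ASP (1.44-fold) and 0.46 ± 0.05 in ASP+CGP (1.38-fold). Chrna3 gave 8.60, 8.63 and 8.75 in CON, 9.07, 9.18 and 9.14 in CGP, 8.89, 9.02 and 9.003 in ASP, and 9.07, 9.02 and 8.93 in ASP+CGP. All treated arrays were above CON, ASP and ASP+CGP overlapped, and the highest ASP+CGP array lay below the lowest CGP array by less than 0.01. Its differences from CON were smaller, at 0.47, 0.31 and 0.35 with an SE of 0.06 each. Chrna5, their neighbour, had 6.45, 6.44 and 6.45 in CON and 6.49, 6.39 and 6.45 in CGP. Its log2 differences from CON were −0.00 ± 0.06, −0.01 and 0.12 for CGP, ASP and ASP+CGP, with limma adjusted p of 0.99, 0.95 and 0.42. The pool means of Chrna5, from 6.43 in ASP to 6.56 in ASP+CGP, lay close to the floor of 6, which limits its contrast with Chrna3 and Chrnb4.

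Nwd2, which encodes a NACHT and WD repeat protein, gave 8.70, 8.71 and 8.55 in CON, 9.15, 9.29 and 9.21 in CGP, 8.86, 8.83 and 8.79 in ASP, and 8.95, 9.08 and 8.79 in ASP+CGP. CGP was above every other array, and ASP+CGP spanned ASP, with the last of its arrays below the lowest ASP array and the rest above the highest. The CGP pool exceeded CON by 0.56, the ASP pool by 0.17 and the ASP+CGP pool by 0.28, each ± 0.07. Pou4f1 is the transcription factor Brn3a, which specifies habenular neurons. Its CON arrays read 6.62, 6.80 and 6.76 and its CGP arrays 7.11, 7.07 and 7.12, while ASP (6.66, 6.93 and 6.84) overlapped CON and ASP+CGP (6.99, 7.04 and 7.15) overlapped CGP. The differences were 0.37, 0.08 and 0.33, each ± 0.07.

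Lhx9, a LIM homeobox transcription factor of the developing thalamus, was the thalamus gene with the largest difference. It read 8.34, 8.28 and 8.31 in CON, 8.87, 8.90 and 8.90 in CGP, 8.49, 8.58 and 8.52 in ASP, and 8.76, 8.80 and 8.63 in ASP+CGP, with no overlap between any 2 pools. Relative to CON its CGP pool stood 0.58 higher, its ASP pool 0.22 and its ASP+CGP pool 0.42, each ± 0.05.

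Ramp3, Prkcd, Tcf7l2 and Rgs16 did not have the wide gap between CGP and ASP+CGP. Ramp3, a partner protein of calcitonin-type receptors, read 9.91, 9.91 and 10.02 in CON, 10.33, 10.41 and 10.31 in CGP, 10.30, 10.32 and 10.32 in ASP, and 10.45, 10.44 and 10.45 in ASP+CGP, where it was highest. Its differences from CON were 0.40, 0.36 and 0.50, each ± 0.04. Prkcd, the δ isoform of protein kinase C that is abundant in thalamic relay neurons, read 10.67, 10.72 and 10.67 in CON, 11.08, 11.14 and 11.10 in CGP, 11.05, 11.05 and 10.96 in ASP, and 11.19, 11.17 and 11.09 in ASP+CGP. CGP and ASP+CGP overlapped, and the differences were 0.42, 0.33 and 0.47, each ± 0.04.

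Tcf7l2, an effector of Wnt signalling found in thalamic and habenular neurons, read 11.06, 11.07 and 11.17 in CON, 11.45, 11.42 and 11.46 in CGP, 11.27, 11.30 and 11.33 in ASP, and 11.41, 11.44 and 11.46 in ASP+CGP. CGP and ASP+CGP again overlapped, at 0.34 and 0.33 above CON, and ASP lay between at 0.20, each ± 0.04. Rgs16, a regulator of G protein signalling, had the smallest differences. It read 10.34, 10.29 and 10.51 in CON, 10.59, 10.57 and 10.59 in CGP, 10.41, 10.43 and 10.40 in ASP, and 10.61, 10.55 and 10.79 in ASP+CGP. It was 0.20, 0.03 and 0.27 above CON, each ± 0.06, and in CON and ASP+CGP the last of the 3 arrays was the highest.

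**Figure D2:**
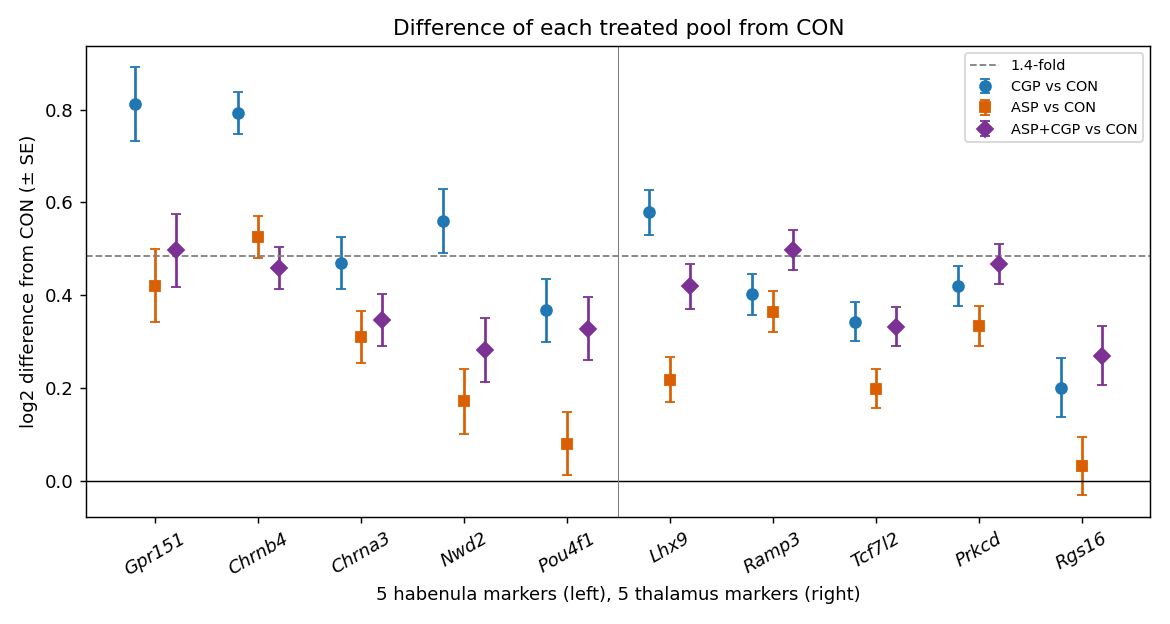
Log2 difference of each treated pool from CON for the 10 genes, with the standard error of the limma fit as bars and 1.4-fold as a dashed line. Chrnb4 is the only gene above the line in ASP, and Gpr151 and Ramp3 are the genes just above it in ASP+CGP.

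A gene was called at a limma adjusted p under 0.05, corrected over all 17186 genes, together with a fold over 1.4. By this rule 4 of the 10 genes were called higher in CGP (Gpr151, Chrnb4, Nwd2 and Lhx9), 1 in ASP (Chrnb4) and 2 in ASP+CGP (Gpr151 and Ramp3), where 0.0931%, 1.02% and 0.0407% of all genes were called higher. The same comparisons chose the genes, so nothing is read from these shares. In CGP the gene nearest to the fold threshold from above was Nwd2 (1.47-fold) and from below Chrna3 (1.38-fold). In ASP+CGP, Gpr151 and Ramp3 were both at 1.41-fold, and Chrnb4 and Prkcd both at 1.38-fold. The ASP+CGP call of Gpr151 was lost without the second CON array (0.43) or the third (0.45), and without the first ASP+CGP array or the second (0.48 each), that of Ramp3 without the first or second CON array (0.48 each), and the ASP call of Chrnb4 without the third CON array (0.49, just below the threshold). With array weights the ASP+CGP call of Gpr151 was also lost (0.44), as it was with only the CON and ASP+CGP arrays in the fit (0.50), while Chrna3 was called in CGP (0.50) and Prkcd in ASP+CGP (0.49). Prkcd was called in ASP+CGP after median centring (0.49) and without the third ASP+CGP array (0.50) as well. Leaving out 1 array also brought calls of Chrna3 in CGP (0.51 without the third CON array and 0.50 without the first CGP array), of Gpr151 in ASP (0.54 without the first CON array) and of Chrnb4 in ASP+CGP (0.49 without the second CON array).

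Differences between the treated pools were fitted for the 10 genes. The CGP, ASP and ASP+CGP arrays had all entered the comparisons against CON that were known when the genes were chosen. The choice can favour differences between the treated pools, so the counts, shares and adjusted p of these 10 genes are a description and nothing rests on them. CGP was above ASP in all 10 genes (median 0.22, all genes 0.03), and in 9 of them no arrays overlapped, a separation seen in 20.1% of all genes. None was called (0.943% of all genes were, all lower in CGP). At an adjusted p under 0.05 with any fold, 5 genes were higher in CGP than in ASP, as were 0.943% of all genes: Lhx9 (0.36 ± 0.05, adjusted p = 0.00036), Chrnb4 (0.27 ± 0.05, 0.0034), Nwd2 (0.39 ± 0.07, 0.0048), Gpr151 (0.39 ± 0.08, 0.012) and Pou4f1 (0.29 ± 0.07, 0.032). For Chrna3, Ramp3, Tcf7l2, Prkcd and Rgs16 the differences were 0.16, 0.04, 0.14, 0.09 and 0.17, with adjusted p from 0.087 to 0.74.

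Where both pools had the antagonist, ASP+CGP was below CGP in all 5 habenula genes, with a median log2 difference of −0.28, whereas the median of the 5 thalamus genes was 0.05 and of all genes −0.02. Only Chrnb4 passed the adjusted p (−0.33 ± 0.05, adjusted p = 0.002), at 1.26-fold, where 0.978% of all genes passed in either direction, and none of the 10 was called (0.163% of all genes). Gpr151 (−0.32 ± 0.08, 0.085) and Nwd2 (−0.28 ± 0.07, 0.084) had differences of similar size that missed it. The other habenula genes, Chrna3 and Pou4f1, were at −0.12 and −0.04 (adjusted p = 0.35 and 0.83). Among the thalamus genes Lhx9 was at −0.16 and Tcf7l2 at −0.01 (adjusted p = 0.15 and 0.93). Ramp3, Prkcd and Rgs16 were at 0.09, 0.05 and 0.07 (adjusted p = 0.35, 0.66 and 0.655). The arrays of ASP+CGP lay all below CGP in 5 genes (Gpr151, Chrnb4, Chrna3, Nwd2 and Lhx9), as in 14.8% of all genes, and all above in Ramp3, as in 7.7%. In the same 5 genes the ASP arrays had all been above CON, and both separations together were found in 2% of all genes. Since the genes were chosen with their height over CON known, nothing is read from that share. The difference between the habenula and thalamus genes in ASP+CGP against CGP was seen in the values and not tested.

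Where both pools had aspartame, ASP+CGP was above ASP in 9 of the 10 genes (median 0.13, all genes 0.01), Chrnb4 being the exception at −0.07 ± 0.05, and in 6 genes all arrays were above, as in 14.6% of all genes. Of the 10, 0 were called (1.27% of all genes) and 3 passed the adjusted p with any fold, where 2.67% of all genes were higher: Pou4f1 (0.25 ± 0.07, adjusted p = 0.043), Lhx9 (0.20 ± 0.05, 0.021) and Rgs16 (0.24 ± 0.06, 0.038). All 3 lost this under one or more of the alternative settings, among them the removal of the first ASP array, which gave 0.17, 0.18 and 0.24.

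**Figure D3:**
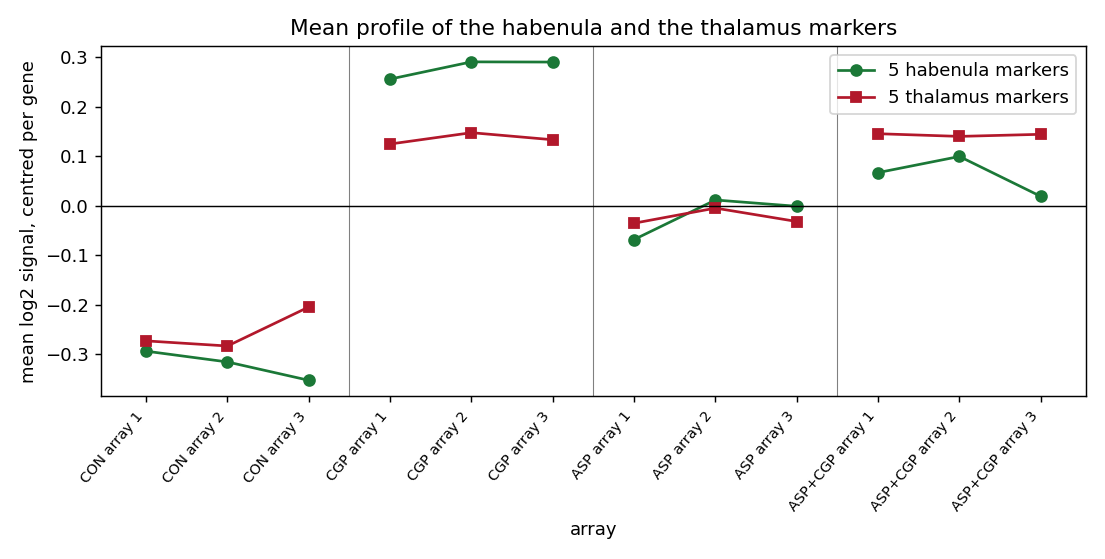
Mean log2 signal of the 5 habenula genes (circles) and the 5 thalamus genes (squares), each gene centred on its own mean over the 12 arrays, shown array by array. The habenula mean is 0.26 to 0.29 in CGP and 0.02 to 0.10 in ASP+CGP, and the thalamus mean is 0.12 to 0.15 in CGP and 0.14 to 0.15 in ASP+CGP.

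Across the 12 arrays the 45 pairs of marker genes correlated with a median Pearson r of 0.82 (range 0.42 to 0.96). The genes were chosen with their shared height over CON known, so this value restates the choice. The arrays are repeats of only 4 pools, and once each array was set against its pool mean the median over the 45 pairs was −0.01 (0.03 over all pairs of genes). Lhx9 was the most like the other 9 genes (r = 0.97) and Rgs16 the least (r = 0.65). Outside the 10 genes, the 8 whose centred signal followed the mean of the 10 most closely over the 12 arrays were Prkcq (r = 0.97), Rora (0.97), Necab3 (0.95), Zic1 (0.95), Scube1 (0.95), Gpr63 (0.94), Chrnb3 (0.94) and Cpne4 (0.94). Their differences from CON in CGP ran from 0.28 for Cpne4 to 0.63 for Scube1, a secreted protein with EGF-like domains, and in ASP from 0.15 to 0.27. Prkcq encodes another protein kinase C isoform, Rora a nuclear receptor, Zic1 a zinc finger transcription factor of the thalamus and Chrnb3 the β3 nicotinic subunit.

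Markers of the same structures that were not among the 10 genes were compared with CON. Both lists, habenula and thalamus, were made with other results of these data known, and the CON arrays are the same. Their counts and adjusted p are therefore a description and no independent support for the 10 genes. Of 14 other habenula genes 2 rose in CGP mice, where 0.0931% of all genes did: Gng8, a G protein γ subunit (0.55 ± 0.08, limma adjusted p = 0.0074), and Lrrc55, an auxiliary subunit of BK potassium channels (0.49 ± 0.06, 0.0019). Gng8 read 7.93, 7.47 and 7.73 in CON and 8.32, 8.20 and 8.25 in CGP, and Lrrc55 read 9.53, 9.67 and 9.49 in CON and 10.05, 10.02 and 10.10 in CGP. The arrays of the 2 pools did not overlap in either gene. Lrrc55 was at 1.41-fold and lost its call without the first CON array (0.47), without the third CON array (0.46) or without the third CGP array (0.47), and Gng8 lost its call without the second CON array (0.43) or the first CGP array (0.51), and, at the same difference, without moderation of the spread or with only the CON and CGP arrays in the fit. None of the 14 rose in ASP or ASP+CGP, where Gng8 was 0.31 and 0.42 above CON and Lrrc55 0.25 and 0.22. In these comparisons 7 and 5 had an unadjusted limma p under 0.05 in either direction, a level whose share of all genes is not given. At an adjusted p under 0.05 with any fold, 3, 1 and 1 of the 14 were higher in CGP, ASP and ASP+CGP, where 0.489%, 2.92% and 0.826% of all genes were, and 0 were lower. The list medians of the 3 comparisons were 0.13, 0.08 and 0.08.

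None of the 3 genes of acetylcholine handling in the medial habenula passed the test. Chat, which makes acetylcholine, was 0.08, 0.19 and 0.08 above CON in CGP, ASP and ASP+CGP, Slc18a3, its vesicular transporter, gave 0.05, 0.08 and −0.11, and Slc5a7, the choline transporter, gave 0.21, 0.19 and 0.13. Tac1, the substance P precursor made in the dorsal medial habenula and in many hypothalamic neurons, differed by −0.23, −0.29 and −0.03 and did not pass either. Htr5b, a serotonin receptor gene of the habenula, was 0.40 ± 0.07 above CON in CGP (adjusted p = 0.014), below 1.4-fold. These genes were named after their values were seen.

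Of 14 other thalamus genes 0 were called in any of the 3 comparisons, yet all 14 had values above 0 in each. At an adjusted p under 0.05 with any fold, the counts of higher genes in CGP, ASP and ASP+CGP were 8, 9 and 11, where 0.489%, 2.92% and 0.826% of all genes were, and 0 were lower. At an unadjusted limma p under 0.05 the counts in either direction were 14, 11 and 13. The share of all genes at that level is not given, so nothing is read from these counts. The list medians were 0.27, 0.18 and 0.31. Zic1 read 10.72, 10.73 and 10.69 in CON, 11.11, 11.06 and 11.11 in CGP, 10.96, 10.99 and 10.93 in ASP and 11.12, 11.13 and 11.13 in ASP+CGP. The ASP+CGP pool was 0.41 ± 0.04 above CON (adjusted p = 4.9e-05). Shox2, a homeobox gene, had the largest difference of the list in ASP+CGP (0.46 ± 0.10, 0.03). Gbx2, which patterns the thalamus, was 0.28, 0.26 and 0.35 above CON, and Lef1, a Wnt effector related to Tcf7l2, was 0.31, 0.19 and 0.33 above it. Slc17a6, the glutamate transporter of thalamic and also of many hypothalamic neurons, gave 0.19, 0.01 and 0.13 and did not pass. These genes too were named after their values were seen.

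**Figure D4:**
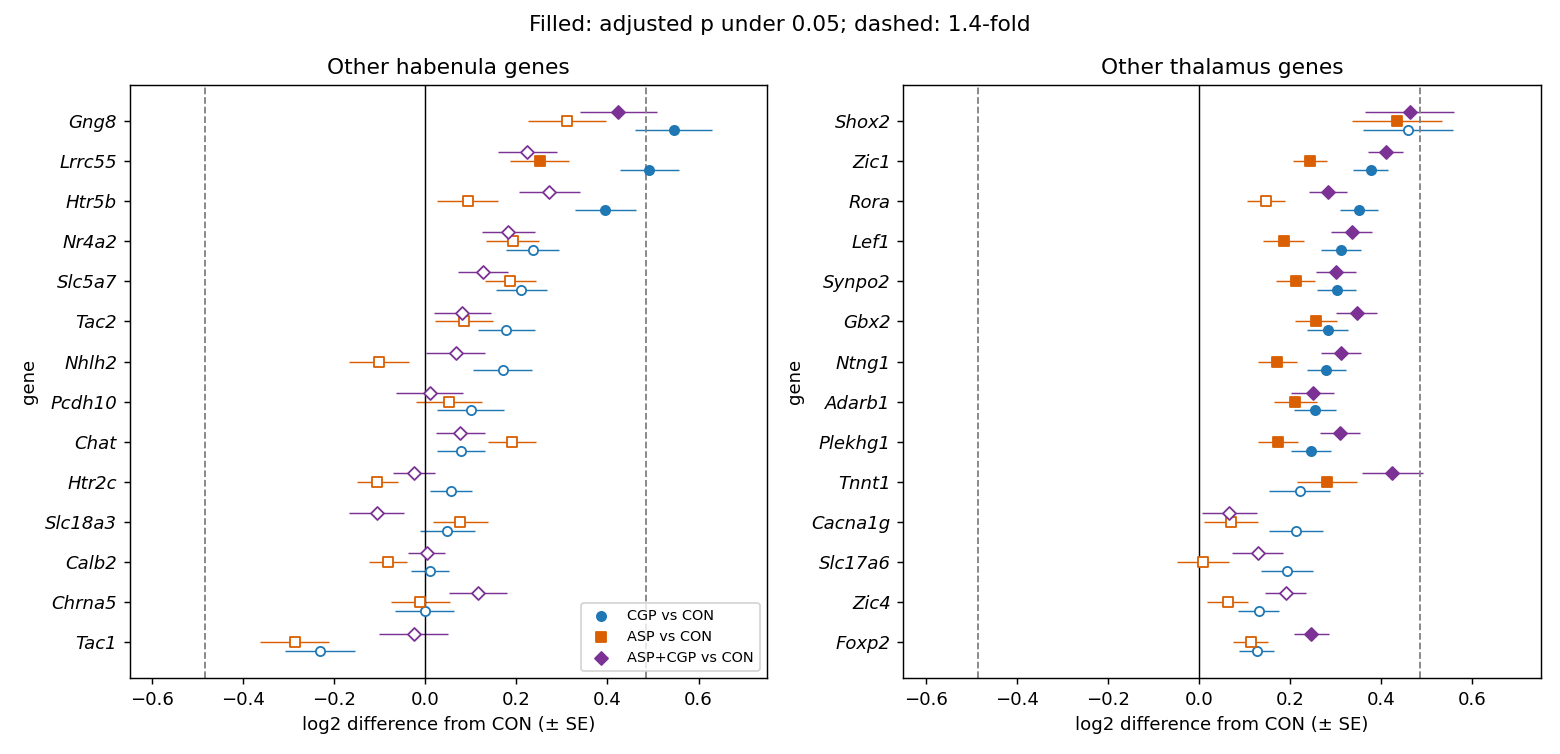
Log2 difference from CON (horizontal axis, with standard error bars) of the 14 other habenula genes and the 14 other thalamus genes in the 3 comparisons. Filled symbols passed an adjusted p under 0.05, dashed lines mark 1.4-fold, and the thalamus genes lie to the right of 0 in all 3 comparisons, with only Gng8 and Lrrc55 in CGP past the 1.4-fold line.

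The gene families of the 10 markers were read for comparison. Of 45 relatives 0 were called in any of the 3 comparisons against CON. Of all genes 0.111%, 1.05% and 0.18% were called in CGP, ASP and ASP+CGP, so nothing is read from the 0. At an unadjusted limma p under 0.05 there were 15, 11 and 16, a level whose share of all genes is not given. At an adjusted p under 0.05 with any fold, 3, 4 and 4 relatives were higher and 0, 1 and 1 lower. Of all genes 0.628%, 4.08% and 1.75% passed it in either direction. Lef1, of the TCF/LEF family, passed in all 3 (limma adjusted p = 0.0041, 0.032 and 0.0013). Of 14 other nicotinic subunit genes Chrnb3 passed the adjusted p with any fold, at 0.36 ± 0.04 in CGP (adjusted p = 0.0018), 0.21 in ASP and 0.24 in ASP+CGP, and the list medians were 0.07, 0.07 and 0.09. Of 7 other protein kinase C genes Prkcq passed in CGP (0.38 ± 0.04, 0.0008) and ASP+CGP (0.26, 0.0091). Among 9 other LIM homeobox genes, Lhx8 (0.32 ± 0.04, 0.00036) and Lhx6 (0.26, 0.014) were higher in ASP, and in ASP+CGP Lhx8 alone was (0.23, 0.015). In the calcitonin receptor group of 6 genes the receptor gene Calcr was lower in ASP and ASP+CGP (−0.24 and −0.27, adjusted p = 0.0052 and 0.0059), while Ramp1 and Ramp2 differed by 0.09 or less. None of 5 other Rgs genes passed, nor did Pou4f3. Lhx8, Lhx6, Calcr, Ramp1, Ramp2 and Pou4f3 were named after their values were seen.

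Markers of other tissues that the block of tissue could hold differed between the pools in the same comparisons. Of the 15 hypothalamic genes 0, 1 and 1 fell in CGP, ASP and ASP+CGP, where 0.0175%, 0.0291% and 0.14% of all genes did. The gene was Avp, the vasopressin gene, with log2 differences of −0.50 and −0.55 in ASP and ASP+CGP. At an adjusted p under 0.05 with any fold 4, 6 and 5 were lower, where 0.628%, 4.08% and 1.75% of all genes passed in either direction. Higher genes alone made up 0.489%, 2.92% and 0.826% of all genes, so the share of lower genes is smaller than the one printed. The summed linear signal of the 15 hypothalamic genes was 23114 to 24982 in CON, 20565 to 20994 in CGP, 19964 to 20282 in ASP and 19863 to 20345 in ASP+CGP, without overlap between CON and the rest. The summed signal of the 10 habenula and thalamus genes was 7805 to 8136 in CON, 10394 to 10563 in CGP, 9323 to 9484 in ASP and 10325 to 10331 in ASP+CGP. Thalamus genes such as Tcf7l2 and Prkcd (means of 11.10 and 10.69 in CON) weigh most in this sum. It therefore does not show the habenula genes, whose median in ASP+CGP against CGP was −0.28. Among 8 pituitary genes 6 rose in CGP and in ASP and 5 fell in ASP+CGP, with Prl, the prolactin gene, at 1.38, 1.68 and −3.22. Of all genes 0.0931% rose in CGP, 1.02% rose in ASP and 0.14% fell in ASP+CGP. The pituitary sum was 16401 to 17258 in CON, 30105 to 30744 in CGP, 33642 to 33760 in ASP and 3881 to 4525 in ASP+CGP. Gh, the brightest of the 8 genes (mean log2 signal of 13.33 in CON), weighs most in this sum.

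The remaining lists are given by their medians, called genes and, where the treated pools stood apart from CON, their summed signal. Of all genes 0.0931%, 1.02% and 0.0407% were called higher and 0.0175%, 0.0291% and 0.14% lower in CGP, ASP and ASP+CGP. The 7 cerebellar genes had medians of 0.01, −0.10 and 0.20, with Cbln3 (0.74), Neurod1 (0.63) and Gabra6 (0.54) higher in ASP+CGP. Of 5 striatal genes 0 were called (medians −0.09, 0.05 and 0.16). Of 5 cortical and hippocampal genes Lamp5 fell in all 3 pools (−0.58, −0.54 and −0.53), with list medians of 0.09, 0.11 and 0.07. Among 8 genes of the choroid plexus, which hangs in the ventricles close to the habenula, Ttr was higher in ASP (0.74) and ASP+CGP (0.50) and Aqp1 in ASP (0.51), with list medians of 0.10, 0.17 and 0.06 and a sum of 4686 to 5246 in CON, 6077 to 6195 in CGP, 7348 to 7470 in ASP and 6088 to 6894 in ASP+CGP. Of 5 hindbrain and spinal cord genes the glycine transporter gene Slc6a5 fell in all 3 pools (−2.03, −1.43 and −1.91), and Hoxc6 (0.74) and the serotonin transporter gene Slc6a4 (0.50) rose in ASP. The sum of these 5 genes was 1025 to 1193 in CON and 513 to 741 over the treated pools. Slc6a5, the brightest of them (mean of 9.44 in CON), weighs most in that sum. The list medians were −0.12, 0.23 and −0.09, so the list as a whole did not follow it. The choroid plexus sum is likewise weighted to Ttr (11.76 in CON). All 6 adrenal cortex genes rose in ASP alone, with a median of 4.94 and a sum of 16193 to 16432 against 412 to 448 in the other pools, and 2 of them had CON means under the floor. The part of any of these lists in the differences of the habenula and thalamus genes was not tested.

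**Figure D5:**
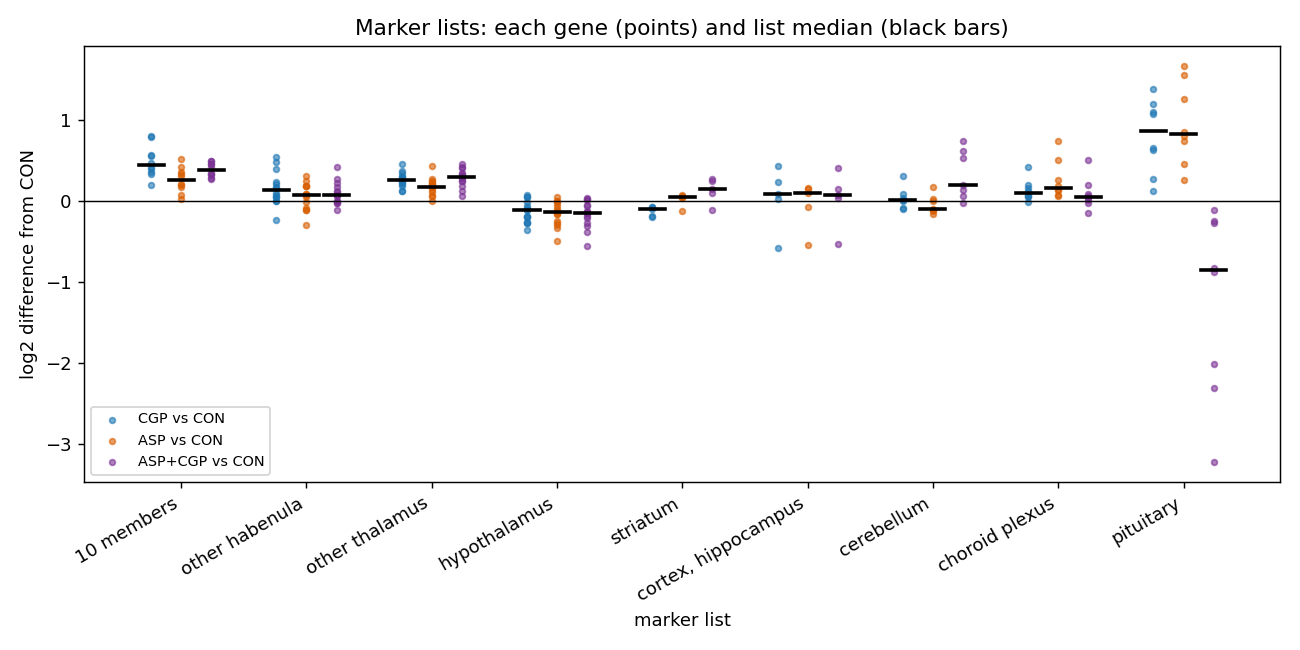
Log2 difference from CON of each gene (points) and the median (black bars) for the 10 habenula and thalamus genes, the 2 lists of other markers and 6 lists of other regions. The medians of the 10 genes and of both other lists lie above 0 in all 3 comparisons, those of the hypothalamus list lie below 0 in all 3, and those of the pituitary list are above 0 in CGP and ASP and below 0 in ASP+CGP.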

How the data were processed

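Total RNA was hybridised to Affymetrix Mouse Gene 1.0 ST arrays. The authors deposited log2 signals after RMA (background correction, quantile normalization and summarisation) in Partek, with 29149 probe sets on 12 arrays, and the genome build was not given in the sources used here. Array medians lay between 8.28 and 8.34, and the precision is limited by the 3 arrays per pool. Of the probe sets 19019 had 1 gene symbol in the platform annotation, 1197 had several and 8933 none. The brightest probe set on average stood for a gene that had more than 1, and genes were kept at a log2 signal of 6 or more on at least 3 arrays, leaving 17186. Pool means were compared with limma 3.58.1 in R 4.3.3 (1 fit over 4 pools, moderated spread, Benjamini-Hochberg adjustment over all genes), and the script was tested on simulated data. The 10 genes, the marker lists and the tests were chosen with earlier results of these data known. The text names the 10 genes, Chrna5, list genes that were called (at most 4 per list and comparison) and the 8 genes most alike, besides those marked as named later. Same-numbered arrays of CON and ASP+CGP deviated together (r = 0.17, 0.256 and 0.541), each above 0.1, whereas in no other pair of pools were all 3 above it (highest single r 0.191), so the replicate number was used as a block in an alternative fit.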

Additional observations from a re-analysis of the deposited data

Results flagged for a closer look

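In 5 of the 10 genes the difference that goes with aspartame had opposite signs without and with the antagonist: all 3 ASP arrays were above CON, and all 3 ASP+CGP arrays were below CGP. This held for 2% of all genes tested, but the 10 genes were chosen by their height over CON, so nothing is read from that share. The ASP+CGP difference from CGP passed the limma adjusted p only in Chrnb4 (0.002). It missed in Gpr151 (0.085), Nwd2 (0.084), Lhx9 (0.15) and Chrna3 (0.35). The difference of the differences, ASP+CGP minus CGP less ASP minus CON, was −0.74 for Gpr151, −0.86 for Chrnb4, −0.43 for Chrna3, −0.45 for Nwd2 and −0.38 for Lhx9. It was not tested, since the values against CON chose these genes, and for Chrna3 the ASP+CGP and CGP arrays were less than 0.01 apart.

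The same difference of differences was read in the 28 other habenula and thalamus genes and the 45 relatives (Chrna5 and Lef1 are in both). It passed the limma adjusted p and 1.4-fold in 2 genes, as in 1.5% of all genes. For lists of this size the count is near that share, so nothing is read from it. It was −0.52 for Lrrc55 (adjusted p = 0.0042), where ASP was 0.25 above CON and ASP+CGP 0.27 below CGP, with a log2 difference of −0.27. It was 0.49 for Tac1 (adjusted p = 0.019), where ASP was 0.29 below CON (−0.29) and ASP+CGP was 0.21 above CGP. Both values depended on single arrays, in alternatives run after the values were seen. Lrrc55 fell short of 1.4-fold without the third CON array (−0.48) or the third ASP+CGP array (−0.44), and with array weights (−0.45). Tac1 fell short of it without the third CON array (0.40), the third ASP+CGP array (0.42) or the second ASP array (0.45, adjusted p = 0.062) and with array weights (0.38), and missed the adjusted p without the first CGP array (0.054) and without moderation of the spread (limma, 0.09). Without the third arrays of both CON and ASP+CGP the values were −0.41 and 0.33.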

How the results depend on the processing

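Each result was recomputed under 27 alternatives and, for ASP+CGP against CON, 1 added after seeing the data. Counts are given in the order CGP, ASP and ASP+CGP against CON. Without the fold threshold, 9, 7 and 9 of the 10 genes were called, 11, 10 and 12 of the 28 other markers, and 3, 5 and 5 relatives, and between treated pools 5 (CGP against ASP), 1 (ASP+CGP against CGP) and 3 (ASP+CGP against ASP) of the 10. At 1.2-fold these were 9, 5 and 9, then 9, 2 and 10, then 3, 1 and 2, then 5, 1 and 0, and at 2-fold all were 0. Of all genes, 0.628%, 4.08% and 1.75% were called in either direction without the fold threshold, and 3.42%, 0.978% and 6.92% between the treated pools. Shares of all genes are not given for the other alternatives. The 10 genes were chosen with their differences from CON known, so nothing is read from their counts. With only the pools compared in the fit, 1 other marker was called in CGP and 1 of the 10 genes in ASP+CGP, and 1 other marker was called in CGP without moderation and 1 in ASP+CGP with array weights. Without the third CON and ASP+CGP arrays, which had the largest spread of deviations (0.0903 and 0.0996), 0 of the 10 genes were called in ASP, and 1 other marker each in CGP and ASP+CGP. Leaving out 1 array at a time gave 4 to 5, 0 to 2 and 1 to 3 of the 10 genes and 1 to 2, 0 to 1 and 0 to 2 other markers, with medians over the 10 genes of 0.42 to 0.47, 0.24 to 0.28 and 0.36 to 0.42. With the replicate number as a block the counts were 4, 1 and 2 of the 10 genes and 2, 0 and 0 other markers, the same as without the block, and in a fit of CON and ASP+CGP alone with this block (the one added) 2 of the 10 were called, against 1 in that fit without the block. Of 820 recomputed differences of the 10 genes from CON, 5 moved by more than the spread between arrays and 1 changed sign, that of Rgs16 in ASP (−0.01). The cause was not tested. With 1 pool per group, differences between mice, between dissections and between pools cannot be told apart.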
